A study of Neotoma stephensi and Rattus norvegicus with 6 samples.

Results

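The genes described here are the monocarboxylate transporters of the Slc16 family, the sodium-coupled transporter Slc5a8 and Bsg, in the foregut wall of 2 rodent species. The members were a list of 10 gene symbols, matched to the symbol column of the count tables, and 8 of the 10 were found among the 15481 genes counted. These were Slc16a1, Slc16a3, Slc16a6, Slc16a7, Slc16a10, Slc16a11, Slc16a13 and Bsg. Slc16a4 and Slc5a8 were not analysed here.

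Poly(A) RNA was sequenced from the fornix ventricularis, the nonglandular part of the stomach, of 3 female Stephens' woodrats (Neotoma stephensi) and 3 female Sprague Dawley lab rats (Rattus norvegicus), with 1 library per animal. The woodrats, herbivores with a fermenting foregut, were caught in the wild, fed juniper foliage and dissected soon after arrival. The lab rats were bought from a supplier and kept for months on standard chow. The labels call every animal a virgin, but per the methods this was known only of the lab rats, and ages were not given in the sources used here. Species, diet, origin, microbes and the distance of each species' sequence from the mouse reference therefore cannot be told apart in any difference below.

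Short-chain fatty acids, lactate, pyruvate and ketone bodies are charged at the pH of tissue and cross membranes largely on carriers. Several Slc16 proteins, the monocarboxylate transporters, move these acids together with a proton, so the direction of transport follows the gradients of both. In the rumen and the colon such carriers are known for moving short-chain fatty acids and ketone bodies across the epithelium. Other Slc16 proteins carry different cargo, such as aromatic amino acids, thyroid hormone or carnitine. Basigin, the product of Bsg, and embigin, the product of Emb, are chaperones that bring some of these transporters to the plasma membrane.

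The 6 libraries held between 5439642 and 7932637 counted reads, and 3 counts, the smallest signal taken as detected in a library, corresponded to between 0.355 and 0.585 CPM. CPM, the reads of a gene relative to the library total, were normalized with the trimmed mean of M-values (TMM), and all ± values are SD over n = 3 animals. Markers of squamous epithelium were present in every animal (9 of 9 genes, with a summed level of 16087 to 39471 CPM in woodrats and 15175 to 22444 CPM in lab rats). Within this list Krt4 was higher in woodrats (log2 fold change 3.34, FDR = 0.00627) and Ivl was lower (-4.96, FDR = 0.000172). The other 7 squamous markers did not pass an FDR below 0.01. By contrast, 7 markers of the glandular stomach summed to between 6.73 and 11.5 CPM. Of these 7, Atp4a was read in every animal, with 31, 41 and 48 reads in woodrats and 67, 59 and 35 in lab rats (FDR = 0.216). It made up the whole sum of the lab rats. The other glandular markers found, Pgc, Tff2, Gkn1, Gkn2, Muc5ac and Muc6, had 0 reads in the lab rats. In woodrats Muc5ac had 17, 12 and 33 reads (fitted log2 fold change 7.32, FDR = 0.00305). Muc5ac reached the level needed for testing, at least 1 CPM in at least 3 animals, through the woodrats alone. It therefore had to differ in order to be tested, and its fitted value depends on the prior count. Gkn2 had 9, 0 and 1 reads in woodrats, and Pgc, Tff2, Gkn1 and Muc6 each had at most 1 read in any animal. The 9 smooth muscle markers summed to 125100, 60420 and 40908 CPM in woodrats 1, 2 and 3 and to between 11261 and 20508 CPM in lab rats. In a bulk sample, fewer cells of a type and less RNA per cell cannot be told apart.

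The question for the comparison of the species was whether a fermenting foregut differs in its solute carriers. Of the 8 members found, 7 had at least 1 CPM in at least 3 animals and were tested with edgeR's quasi-likelihood F-test against all 12603 genes that passed the same filter. At a false discovery rate (FDR) below 0.01, Slc16a10 was higher in woodrats, and Slc16a11, Slc16a13 and Slc16a7 were lower. Slc16a1, Slc16a6 and Bsg did not pass. Thus 4 of the 7 tested members passed, while over all genes tested 20.0% passed, 10.3% as higher and 9.71% as lower in woodrats. Slc16a10 passed the filter through the woodrats alone and Slc16a7 through the lab rats alone, so that these 2 had to differ in order to be tested.

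**Figure D1:**
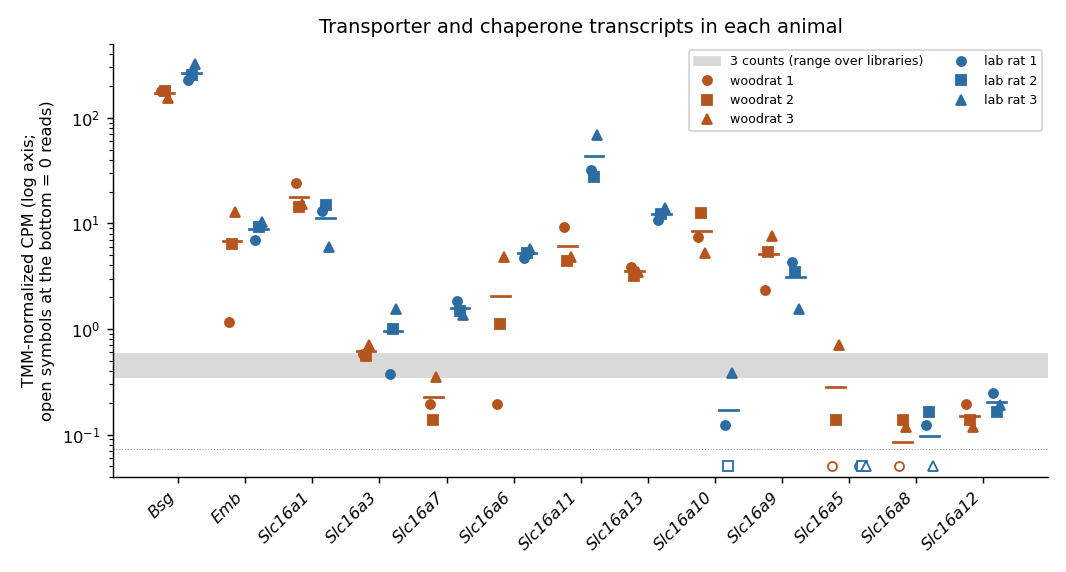
TMM-normalized CPM (log axis) of the 8 members found, of Emb and of 4 other Slc16 genes, 1 symbol per animal with woodrats in orange and lab rats in blue, bars for the means, open symbols for 0 reads and a grey band for the level of 3 counts. The species are far apart for Slc16a10 and Slc16a11 and overlap for Slc16a1, and heights of different genes cannot be compared because CPM are not corrected for transcript length.

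Slc16a1 encodes MCT1, the widespread proton-linked carrier of lactate, pyruvate, ketone bodies and short-chain fatty acids. It had 24.2, 14.4 and 15.3 CPM in woodrats 1, 2 and 3 and 13.0, 15.0 and 5.96 CPM in lab rats 1, 2 and 3. Woodrat 1 was the highest animal and lab rat 3 the lowest, and the other 4 animals lay close together, with lab rat 2 above woodrat 2. The woodrat mean was 18.0 ± 5.42 CPM and the lab rat mean 11.3 ± 4.76 CPM, which gave a log2 fold change (woodrat over lab rat) of 0.65 with a standard error (SE) of 0.40 and an FDR of 0.220. A difference was thus not shown for Slc16a1. Leaving out single animals moved its log2 fold change between 0.35, without lab rat 3, and 0.90.

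Slc16a3 encodes MCT4, which exports lactate from glycolytic cells. It was close to the limit of detection in both species, with 3, 4 and 6 reads in the woodrat libraries against 3, 6 and 8 in those of the lab rats, and was not tested. The summed reads gave a woodrat to lab rat ratio of 0.711, with a 95% exact interval from 0.317 to 1.55 that covers counting error only, so a difference was not detectable at this depth.

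Slc16a7 encodes MCT2, a carrier with high affinity for pyruvate and lactate. Its woodrat libraries held 1, 1 and 3 reads, at or under the level of 3 counts, and its lab rat libraries 15, 9 and 7. Every lab rat, at 1.86, 1.49 and 1.35 CPM, was above every woodrat, of which the highest had 0.355 CPM. Such separation with lab rats on top was shared by 27.4% of all tested genes. Its log2 fold change was -2.64 (SE 0.57, FDR = 0.00792). From the summed reads, lab rats had 6.67 times the woodrat level, with a counting interval from 2.57 to 22.0. The call rested on few reads. Its FDR was also above 0.01 whichever of the 6 animals was left out, from 0.0102 without woodrat 3 to 0.0375 without lab rat 1.

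Slc16a6 encodes MCT7, for which export of ketone bodies has been described. It had 0.195, 1.11 and 4.85 CPM in woodrats 1, 2 and 3, from 1, 8 and 41 reads, and a narrow range in lab rats, with 4.71, 5.29 and 5.77 CPM. Woodrat 3 was level with the lab rats and the other woodrats were below them. The log2 fold change was -1.27 (SE 0.75, FDR = 0.208), and it ranged from -2.87 (FDR = 0.00810) without woodrat 3 to -1.02 (FDR = 0.400) without woodrat 2 and -0.79 (FDR = 0.315) without woodrat 1. Trp63, the transcription factor of basal squamous cells, was spread over the woodrats in the same order. It had 3.32, 11.4 and 100.5 CPM in woodrats against 35.8 to 87.4 CPM in lab rats. The order was not particular to Trp63, since Krt5, Krt14, Krt4, Krt13, Sbsn, Dsg3 and Perp also rose from woodrat 1 to woodrat 3. Ivl fell instead, with 11.3, 8.60 and 7.81 CPM. The part of squamous cells in the Slc16a6 values was not tested.

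Slc16a11 and Slc16a13 are neighbouring genes whose products, MCT11 and MCT13, are less studied carriers with roles in lipid and lactate metabolism. Both were higher in every lab rat than in every woodrat, as were 27.4% of all tested genes. Slc16a11 (ENSMUSG00000040938.15) had 9.17, 4.44 and 4.85 CPM in woodrats and 32.4, 27.4 and 69.3 CPM in lab rats. Lab rat 3 stood above the other lab rats, and the lowest lab rat was still well above woodrat 1, the highest woodrat. The means were 6.15 ± 2.62 and 43.0 ± 22.9 CPM, and the log2 fold change was -2.82 (SE 0.46, FDR = 0.00274). Without lab rat 3 the log2 fold change was -2.30 and still passed (FDR = 0.00828), while without woodrat 2 the FDR was 0.0146.

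Slc16a13 (ENSMUSG00000044367.7) varied little within each species. It had 3.90, 3.19 and 3.43 CPM in woodrats and 10.7, 12.2 and 13.9 CPM in lab rats, with means of 3.51 ± 0.36 and 12.2 ± 1.60 CPM. The log2 fold change was -1.80 (SE 0.31, FDR = 0.00323). It kept within -1.89 and -1.71 when single animals were left out, but the FDR was 0.0176 without woodrat 2, 0.0130 without lab rat 1 and 0.0151 without lab rat 2.

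Slc16a7, Slc16a11 and Slc16a13 were lower in the species with lower markers of blood cells. The 7 leukocyte markers summed to between 14.0 and 41.7 CPM in woodrats and to between 198 and 303 CPM in lab rats, and the 3 red cell markers to between 12.0 and 35.9 CPM and between 253 and 497 CPM. Of the 5 leukocyte markers tested, 4 passed as lower in woodrats and Cd68 did not, and all 3 red cell markers passed as lower. Among those that passed, Ptprc, Itgam and Alas2 reached the filter through the lab rats alone, so they had to differ in order to be tested. None of the leukocyte and red cell markers was at 0 in all animals of a species. The part of blood cells in the differences of the transporters was not tested.

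Slc16a10 encodes TAT1, which despite the family name carries aromatic amino acids without a proton, and also thyroid hormone. Slc16a10 (ENSMUSG00000019838.10) had 38, 91 and 44 reads in woodrats, or 7.41, 12.6 and 5.21 CPM. In lab rats it had 1, 0 and 2 reads, or 0.124, 0 and 0.385 CPM, each under the level of 3 counts in its library (0.372, 0.496 and 0.577 CPM). All woodrats were therefore far above all lab rats, a separation with woodrats on top that 28.8% of all tested genes shared, and in lab rats the transcript was not detectable at this depth. The summed counts, 173 reads against 3, gave a ratio of 53.6 with a 95% exact interval from 18.0 to 262, for counting error only. The fitted log2 fold change was 5.58 (SE 0.74, FDR = 0.00127), a value that depends on the prior count. It lay between 5.07 and 6.58 (without lab rat 3) when single animals were left out, and its FDR stayed below 0.01 in all 6 of these fits. Summed smooth muscle markers were also above the lab rats in every woodrat, as given above, and 3 of the 9 (Mylk, Lmod1 and Synpo2) passed the test as higher. Of the 6 skeletal muscle markers, Ckm, which encodes muscle creatine kinase, was higher in woodrats (330.1, 209.6 and 139.5 CPM against 16.1 to 36.4 CPM). The other 5, Myh1, Myh2, Myh4, Tnnt3 and Mylpf, were lower in every woodrat than in any lab rat, but Myh4 and Tnnt3, the ones tested, did not pass (FDR = 0.0147 and 0.0321). Myh4 reached the filter through the lab rats alone. Ckm made up nearly all of the skeletal muscle sum in woodrats and most of it in lab rats. This sum lay between 142 and 332 CPM in woodrats and between 22.1 and 49.3 CPM in lab rats. The part of muscle in the Slc16a10 difference was not tested.

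**Figure D2:**
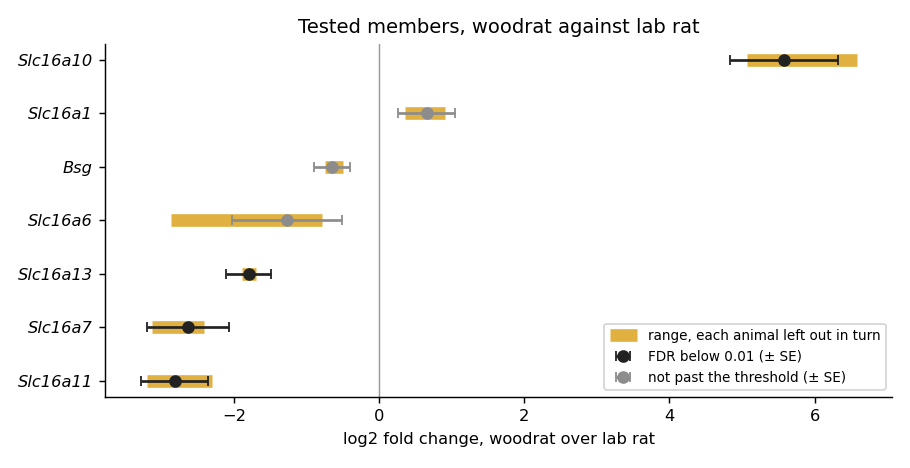
Log2 fold changes (woodrat over lab rat) of the 7 tested members with their SE, black where the FDR was below 0.01 and grey where it was not, over yellow bars for the range of the 6 fits that each left out 1 animal. Slc16a10 lies at 5.58, Slc16a11 at -2.82, and the yellow bar of Slc16a6 reaches -2.87.

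Bsg, the chaperone of MCT1 and MCT4, was read at moderate depth in every animal. It had 181, 178 and 153 CPM in woodrats and 227, 254 and 322 CPM in lab rats, so that every lab rat was above every woodrat. Such separation was common, since lab rats were above woodrats without overlap in 27.4% of all tested genes. The means were 171 ± 15.4 and 268 ± 48.8 CPM, with a log2 fold change of -0.65 (SE 0.25, FDR = 0.0661) that did not pass the threshold. Red cells, which carry basigin, had lower markers in woodrats as given above, and their part was not tested.

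The ratio of Slc16a1 to Bsg was taken within each library, where scaling between libraries cancels. There were 0.133, 0.0811 and 0.0998 reads of Slc16a1 per read of Bsg in woodrats, and 0.0573, 0.0592 and 0.0185 in lab rats, without correction for length. Every woodrat was above every lab rat. The mean log2 ratio was -3.29 ± 0.36 in woodrats and -4.65 ± 0.95 in lab rats, a difference of 1.37 (exact permutation test, two-sided, p = 0.1, the smallest that 3 animals against 3 allow). Without lab rat 3 the difference was 0.82.

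Emb and, of the remaining Slc16 genes, Slc16a5, Slc16a8, Slc16a9 and Slc16a12 were read in the same libraries, and Slc16a14 and Slc5a12 were not analysed here. Slc16a9 and Emb could be tested, and neither was past the threshold. Slc16a9, linked to carnitine export, had 2.34, 5.41 and 7.57 CPM in woodrats and 4.34, 3.47 and 1.54 CPM in lab rats (log2 fold change 0.71, SE 0.53, FDR = 0.316). Emb, the chaperone of MCT2, had 1.17, 6.38 and 12.9 CPM in woodrats and 6.94, 9.25 and 10.4 CPM in lab rats (log2 fold change -0.35, SE 0.65, FDR = 0.698). As with Slc16a6, woodrat 1 was the lowest animal for Emb, and the woodrats spanned the whole range of the lab rats. Slc16a5 had 0, 1 and 6 reads in woodrats and none in lab rats, and Slc16a8 and Slc16a12 had at most 2 reads in any animal.

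Summed as a family, the 12 Slc16 genes held 251, 315 and 374 reads in woodrats 1, 2 and 3, and lab rats 1, 2 and 3 held 558, 407 and 520. Their summed level was 45.6 ± 2.91 CPM for woodrats against 78.8 ± 18.4 CPM for lab rats, with every lab rat above every woodrat (exact permutation test, two-sided, p = 0.1). Slc16a11 alone held 6.15 ± 2.62 CPM of this level in woodrats and 43.0 ± 22.9 CPM in lab rats. The sum without Slc16a11 was not compared, so the difference is not shown for the rest of the family. Shares of reads favour long transcripts, so a share is compared below only with the same gene's share in the other species.

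Slc16a1 made up 49.4%, 33.0% and 34.5% of the family's reads in woodrats and 18.8%, 22.4% and 5.96% in lab rats. For the lowest woodrat the 95% Wilson interval ran from 28.1% to 38.4%, and for the highest lab rat from 18.6% to 26.7%. The mean share was 39.0 ± 9.06% in woodrats and 15.7 ± 8.63% in lab rats. Slc16a10 made up 15.1%, 28.9% and 11.8% in woodrats, where the lowest had an interval from 8.88% to 15.4%. In lab rats its share was 0.179%, 0 and 0.385%, and 0 of 407 reads allows a share of up to 0.737% by the limit of 3 counts (0.935% by the Wilson interval). Slc16a11 went the other way, with 18.7%, 10.2% and 11.0% in woodrats and 46.8%, 40.8% and 69.2% in lab rats, intervals of 14.4% to 24.0% for the highest woodrat and 36.1% to 45.6% for the lowest lab rat. Slc16a13 made up 7.67 ± 0.34% in woodrats and 15.8 ± 2.20% in lab rats.

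The shares of Slc16a1, Slc16a10, Slc16a11, Slc16a13 and Slc16a7 did not overlap between the species. Each gave the smallest p that the exact permutation test allows, 0.1 (two-sided, adjusted p = 0.24 over the 12 genes compared). The test therefore could not pass a threshold of 0.05. The share of Slc16a6 was 4.63 ± 5.58% in woodrats and 6.81 ± 1.05% in lab rats (exact p = 0.5), and that of Slc16a9 was 11.4 ± 6.22% and 4.32 ± 2.48% (exact p = 0.3). The share that a gene takes falls when another gene of the family takes more, so these 12 shares are not independent of each other. In lab rats Slc16a11 took 40.8% to 69.2% of the reads, which leaves less for the other genes. The CPM of Slc16a1 overlapped between the species, and its share without the reads of Slc16a11 was not compared.

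**Figure D3:**
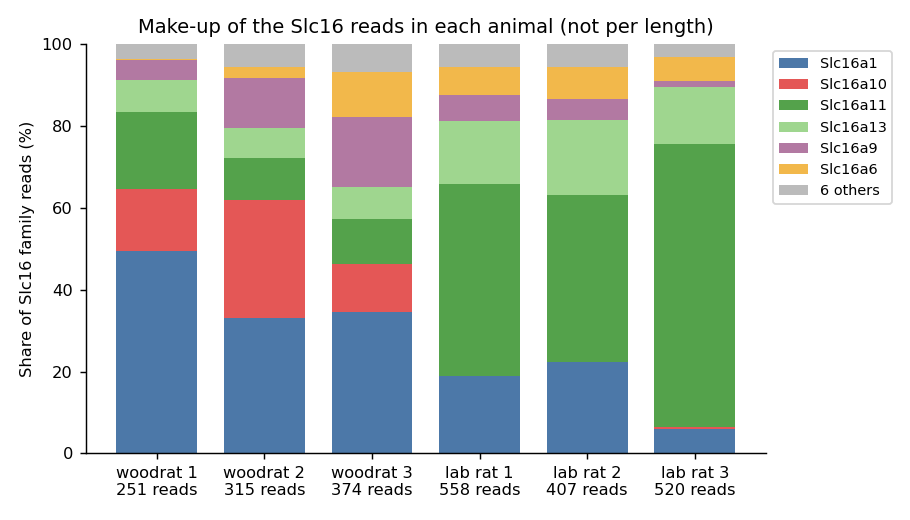
Stacked bars of the share (%) of the reads of 12 Slc16 genes taken by each gene in each of the 6 animals, without correction for length, with the number of reads under each bar. Slc16a1 and Slc16a10 together fill the lower part of the woodrat bars, and Slc16a11 takes 40.8% to 69.2% of the lab rat bars and 10.2% to 18.7% of the woodrat bars.

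Around the transporters, 8 lists of genes of the same pathways held 82 genes, of which 54 were tested. At an FDR below 0.01, 8 were higher and 6 lower in woodrats, against the 20.0% of all tested genes given above, so the lists as a whole did not stand far from all genes. The median log2 fold change of the 54 was -0.04, and that of all tested genes was 0.03. Leaving out single animals gave between 1 and 8 genes as higher (8 only without woodrat 3, and 3, 1, 1, 1 and 2 without woodrat 1, woodrat 2 and lab rats 1, 2 and 3) and between 3 and 10 as lower (3 without woodrat 2 or lab rat 2, and 10 without woodrat 3).

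Of the 13 genes that handle lactate and pyruvate, 2 were higher, 3 were lower and 8 did not pass. Ldhd, the mitochondrial D-lactate dehydrogenase, was lower in woodrats, with 11.5, 12.9 and 11.2 CPM against 118, 105 and 189.5 CPM in lab rats (log2 fold change -3.53, SE 0.31, FDR = 0.000293). Its tight woodrat values lay far under every lab rat, and it passed in all 6 fits that left out an animal. Every lab rat was above every woodrat in 27.4% of all tested genes. Ldha, the lactate dehydrogenase subunit of glycolytic tissue, was also lower, with 112, 87.2 and 146 CPM against 324, 437 and 484 CPM (log2 fold change -1.85, SE 0.30, FDR = 0.00262). Its FDR was above 0.01 without woodrat 2 (0.0155) or lab rat 2 (0.0112). Ldhb, a further lactate dehydrogenase gene, went the other way but did not pass (log2 fold change 1.71, FDR = 0.0132). It had 467, 236 and 169 CPM in woodrats and 75.9, 68.6 and 121 CPM in lab rats. Among the kinases that switch off pyruvate dehydrogenase, Pdk1 was lower in woodrats (log2 fold change -1.80, FDR = 0.00134), and Pdk2 and Pdk3 were higher (1.29 and 1.51, FDR = 0.00540 and 0.00503). Pdk1 passed whichever animal was left out. The FDR of Pdk2 stayed below 0.01 only without woodrat 3, and that of Pdk3 only without woodrat 1 or woodrat 3.

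Of the 8 enzymes that activate short-chain fatty acids to their coenzyme A esters, 3 were tested. Acss1, the mitochondrial acetate-activating enzyme, was higher in woodrats, with 53.5, 40.2 and 54.4 CPM against 19.3, 22.5 and 11.7 CPM (log2 fold change 1.46, SE 0.30, FDR = 0.00652). Acss2, its cytosolic and nuclear counterpart, was lower, with 24.0, 22.3 and 16.1 CPM against 58.5, 57.8 and 64.8 CPM (log2 fold change -1.54, SE 0.25, FDR = 0.00246). Neither gene overlapped between the species, a separation found with woodrats above in 28.8% and with lab rats above in 27.4% of all tested genes. Without any 1 of the animals the FDR of Acss1 was above 0.01, between 0.0122 and 0.0234, and that of Acss2 was above it without woodrat 2, lab rat 1 or lab rat 2 (0.0108 to 0.0128). None of the 7 genes of ketone body synthesis and use passed.

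Of the receptors for short-chain fatty acids, ketone bodies and lactate, Hcar2, which binds butyrate and hydroxybutyrate, was the one tested. It had 5.07, 14.3 and 26.4 CPM in woodrats and 57.8, 54.5 and 57.1 CPM in lab rats (log2 fold change -1.87, SE 0.49, FDR = 0.0173), with every lab rat above every woodrat, as in 27.4% of all tested genes. It did not pass the threshold, and without woodrat 3 it did (log2 fold change -2.52, FDR = 0.00298). The fatty acid receptor Ffar2 had at most 8 reads in any animal and Ffar3 at most 1.

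Of the 18 anion exchangers, proton exchangers and carbonic anhydrases, 10 were tested, 2 were higher and 1 was lower in woodrats. Car14, a membrane-bound carbonic anhydrase, had 94.6, 52.5 and 69.8 CPM in woodrats and 2.73, 4.13 and 7.89 CPM in lab rats (log2 fold change 3.90, SE 0.44, FDR = 0.000744). Slc26a6, an exchanger of chloride, bicarbonate and organic anions, had 1.37, 0.971 and 2.84 CPM in woodrats and 19.5, 13.2 and 22.7 CPM in lab rats (log2 fold change -3.37, SE 0.46, FDR = 0.00141). Both separated the species by wide gaps and passed whichever animal was left out. Groups without overlap were common, with woodrats above in 28.8% and lab rats above in 27.4% of all tested genes. The chloride and bicarbonate exchanger Slc4a3 was higher in woodrats (log2 fold change 2.28, FDR = 0.00604), a call that held only without woodrat 3 among the 6 fits, with FDR values from 0.0109 to 0.0263 in the others.

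Since Slc16a10 carries aromatic amino acids and thyroid hormone, 14 genes of these pathways were listed, of which 9 were tested, 2 were higher in woodrats and none was lower. Crym, a cytosolic thyroid hormone binding protein, was read 11, 18 and 22 times in the woodrats but 1, 0 and 3 times in the lab rats (log2 fold change 3.41, SE 0.74, FDR = 0.00827). Thra, a thyroid hormone receptor, had 282, 198 and 149 CPM in woodrats and 52.7, 68.4 and 65.0 CPM in lab rats (log2 fold change 1.75, SE 0.30, FDR = 0.00301). Crym passed the filter through the woodrats alone. Its FDR stayed below 0.01 only without lab rat 3, and that of Thra only without woodrat 1 or woodrat 3. The amino acid exchanger subunits Slc7a5 and Slc3a2 did not pass (FDR = 0.844 and 0.0320).

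Of the 11 listed partners and ligands of basigin, 10 were tested. Itgb1, an integrin subunit also abundant in muscle, was higher in woodrats (log2 fold change 1.97, FDR = 0.00633), and Mmp2, a matrix metalloproteinase, was lower (log2 fold change -1.10, FDR = 0.00927). Each passed only without woodrat 3 among the 6 fits that left out an animal. In these fits the log2 fold change lay between 1.59 and 2.24 for Itgb1 and between -1.28 and -1.02 for Mmp2. Ppia, the cyclophilin that binds basigin, had 1596, 1466 and 1626 CPM in woodrats and 1427, 1628 and 2877 CPM in lab rats (FDR = 0.487).

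**Figure D4:**
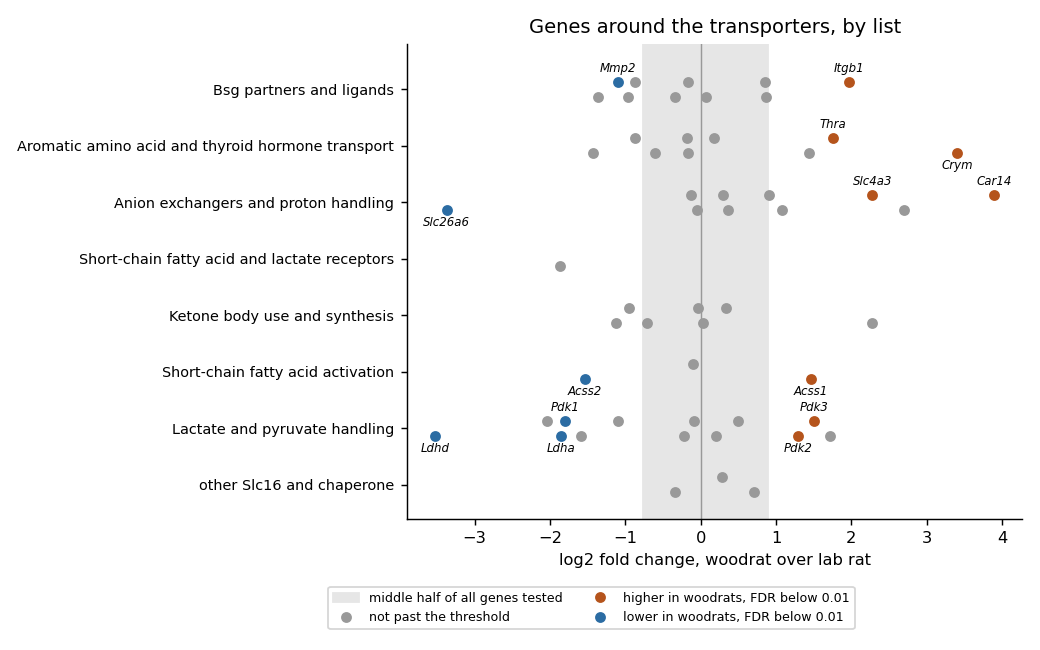
Log2 fold changes (woodrat over lab rat) of the 54 tested genes of the 8 lists, 1 point per gene in each list that holds it, orange or blue where the FDR was below 0.01, with the interquartile range of all 12603 tested genes shaded. Car14 and Crym lie farthest to the right at 3.90 and 3.41, and Ldhd and Slc26a6 farthest to the left at -3.53 and -3.37.

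**Figure D5:**
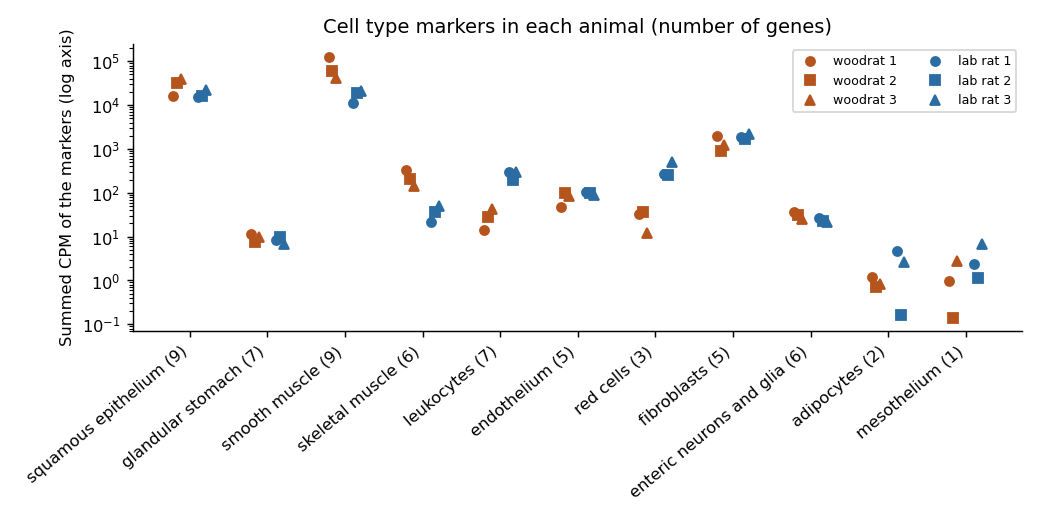
Summed TMM-normalized CPM (log axis) of cell type markers in each animal, with woodrats in orange, lab rats in blue and the number of marker genes in parentheses. The smooth muscle sum is higher in all woodrats, as is the skeletal muscle sum, which in woodrats is nearly all Ckm while the other 5 skeletal muscle markers are lower in all woodrats. Leukocyte and red cell sums are higher in all lab rats. The squamous epithelium sums overlap, although Krt4 in that list was higher and Ivl lower in woodrats.

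The other marker lists overlapped between the species. The summed levels in woodrats and in lab rats were 48.4 to 97.7 and 91.4 to 103 CPM for endothelium, 908 to 2006 and 1688 to 2141 CPM for fibroblasts, and 24.8 to 35.9 and 21.4 to 26.4 CPM for enteric neurons and glia. Adipocyte and mesothelial markers summed to at most 6.93 CPM in any animal.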

How the data were processed

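The authors trimmed the read pairs (Trimmomatic), merged overlapping pairs (FLASH), aligned reads to mouse coding transcripts of GENCODE release M7 with cross_match, and deposited for each animal raw counts of uniquely assigned, strand-matched reads per mouse gene. The labels name mouse build mm9, and tool versions were not given in the sources used here. No genomic coordinates or sequences were used. Every listed gene had woodrat reads, and 809 had no lab rat reads.

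Species and replicate number came from the sample titles. In R 4.3.3 with edgeR 4.0.16, the 12603 genes that reached 1 CPM in 3 or more animals were scaled by TMM and tested with the earlier quasi-likelihood F-test (species only, prior count 0.125, Benjamini-Hochberg adjustment over all tested genes, FDR below 0.01). The SE is the size of the log2 fold change over the square root of F. Shares and ratios within a library were compared by exact permutation tests. Shares were of reads because no transcript lengths were available. Replicate libraries differed beyond sampling noise (chi-square per degree of freedom 10.1 to 121). P-values of the F-test set the species difference against the spread between these animals, estimated with information shared over genes. Those of the exact tests rank the difference among all splits of the animals. Intervals cover counting error only.

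The members, the pathway and marker lists and the tests were chosen with earlier results of these data known. The genes named are all members, other Slc16 genes, Slc5a12, Emb and, from each list, at most 4 genes past the threshold in each direction or else the most abundant, and some genes that this rule names are not reported here. Ldhb, Ffar2, Ffar3, Slc7a5, Slc3a2, Ppia and the cell type markers were named after their values were seen. Alternatives were other filters, scalings, DESeq2 1.42.0, the quasi-likelihood method of edgeR 4, the replicate number as a block, and each animal left out with the tested genes kept. The scripts were tested on simulated counts.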

Additional observations from a re-analysis of the deposited data

How the results depend on the processing

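The count of transporter genes higher in woodrats was 1 and that of genes lower was 3. Without a filter, with a filter at 5 CPM (where Slc16a7 could not be tested), with total counts only and with DESeq2, 2 were lower. The replicate block gave 0 higher and 0 lower. Leaving out 1 animal gave 1 higher in each fit and from 0 (without woodrat 2) to 3 lower, with 1 without lab rat 1 or lab rat 2. All tested members kept their direction under every alternative run. Slc16a10 passed in 12 of 13 alternatives, Slc16a11 in 11 of 13, Slc16a13 in 9 of 13 and Slc16a7 in 2 of 12.

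The number of all genes called, 2516 at first, was 3916 with DESeq2, 716 with the replicate block and from 899 (without woodrat 2) to 2626 when 1 animal was left out, with 936, 1050 and 1305 without lab rats 1, 2 and 3. Of the pathway genes, 8 were higher and 6 lower, against 1 and 2 with the replicate block, and from 1 to 8 and from 3 to 10 with 1 animal left out. The causes were not tested.

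The same replicate number did not pair the animals: their deviations from the species means correlated at -0.293, -0.0918 and -0.289 for numbers 1, 2 and 3, so the block is given only here. With it, the FDR was 0.0101 for Slc16a10, 0.0122 for Slc16a11, 0.0220 for Slc16a13 and 0.0390 for Slc16a7. With 1 animal left out, the log2 fold change of Emb lay between -1.18 and 0.13 (reversed, without woodrat 1). Shares and ratios with length correction were not run. With few reads per animal, depth limits Slc16a3, Slc16a5, Slc16a7, Slc16a8 and Slc16a12.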
